A study of Homo sapiens with 12 samples.

Results

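The 7 genes described here are early targets of all-trans retinoic acid (ATRA) known from promyelocytic leukaemia cells: ASB2, TGM2, CD38, HIC1, RARRES3, TNFAIP2 and PRAM1. They are 7 of the 58233 genes in the table and were found by their gene names, with 1 row for each name. The set was chosen from genes known to rise with ATRA and with their values in ATRA-treated against untreated cells of these libraries in view, so that contrast is given below as a description, with no test. RNA of HL-60, an established human acute myeloid leukaemia line that lacks the PML::RARA fusion, was sequenced after 3 h in 12 libraries, 3 for each of 4 conditions. The conditions were untreated cells, 100 nM ATRA, 500 nM palbociclib (an inhibitor of the cell cycle kinases CDK4 and CDK6), and both drugs together, called the combination. Whether the untreated cells received the drugs' solvent is not given in the sources used here. All libraries came from this 1 cell line, and the labels do not say whether the 3 libraries of a condition were separate cultures. The study's methods call the libraries barcoded triplicates and state that data came from independent experiments where nothing else is said, without tying this to the sequencing, so p-values measure the spread among these libraries.

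ATRA is the ligand of the retinoic acid receptors, which sit on DNA together with retinoid X receptors and switch from repressing to activating transcription when the ligand binds. Genes with such receptors at their regulatory elements respond within hours, before the cell has taken on the features of a granulocyte. In acute promyelocytic leukaemia this response is the basis of treatment with ATRA.

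The question put to the data was how these targets responded to ATRA at 3 h, and whether palbociclib, alone or added to ATRA, was accompanied by a different level. Of the 7 genes, 5 were measured above the filter of at least 5 RPKM (reads scaled by gene length and library size, deposited as whole numbers) in at least 3 libraries. TGM2 and RARRES3 were listed at 0 in every library. With ATRA the other 5 were higher, from 2.31-fold for TNFAIP2 to 13.7-fold for ASB2 by the ratio of the mean RPKM, and HIC1 went from listed at 0 to 8 to 11 RPKM. The ASB2 ratio could lie between 8.78 and 28.3 from rounding alone. None of the 5 genes was called between the combination and ATRA alone, where 0.0% of all 7820 genes tested were called. HIC1, ASB2 and CD38 passed the filter only through their ATRA-containing libraries, so the number that passed is no support for a rise, while PRAM1 and TNFAIP2 also reached it in libraries without ATRA.

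Sequences just upstream of the start sites are given for the 3 members that have an entry in RefSeq's promoter table (assembly GRCh38.p14), because their RNA was higher with ATRA. Each run is the part of the 250 bases before the RefSeq start that precedes any exon annotated by GENCODE v44 within those bases, on the strand of the gene, 5′ to 3′. The TNFAIP2 run lies inside the GENCODE gene, downstream of its first annotated start and in no exon. For ASB2 it is 81 bases at chr14:93976740-93976820 (minus strand), for CD38 197 bases at chr4:15778078-15778274 (plus strand), and for TNFAIP2 226 bases at chr14:103123211-103123436 (plus strand). Capitals mark the letters of the 2 motifs that were searched on both strands.
ASB2: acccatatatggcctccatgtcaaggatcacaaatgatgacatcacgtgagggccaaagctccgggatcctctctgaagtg
CD38: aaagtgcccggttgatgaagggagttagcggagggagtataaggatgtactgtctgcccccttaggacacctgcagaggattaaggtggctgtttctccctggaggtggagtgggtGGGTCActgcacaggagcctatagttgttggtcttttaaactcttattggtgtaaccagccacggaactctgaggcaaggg
TNFAIP2: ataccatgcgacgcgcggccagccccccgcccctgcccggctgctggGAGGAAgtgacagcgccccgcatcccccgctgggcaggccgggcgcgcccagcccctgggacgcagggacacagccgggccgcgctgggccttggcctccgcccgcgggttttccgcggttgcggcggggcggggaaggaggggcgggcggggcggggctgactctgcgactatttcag
The first motif was the half-site of retinoic acid receptors in 4 spellings, the consensus AGGTCA, its common variant AGTTCA, the form GGGTCA known from strong response elements, and the mixed form GGTTCA. It was found once, as GGGTCA in CD38, 129 to 134 bases before the start. Of 35116 RefSeq windows of the same 250 bases, 33.8% held such a half-site, so 1 match in 4 windows (ASB2 has 2 start sites) is not unusual. The second motif was GAGGAA, the core letters bound by the myeloid factor PU.1, which 23.6% of the windows held. It was found in TNFAIP2, 198 to 203 bases before the start. It was also found at both ASB2 starts, in bases that are not printed because they do not precede every annotated exon. The CD38 element known to bind retinoic acid receptors lies within the gene and not in this window. A match is a description of letters, not a bound site, and the absence of a match says only that these letters are not in the window. HIC1, TGM2, PRAM1 and RARRES3 (PLAAT4) have no entry in the table.

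HIC1 encodes a zinc finger transcriptional repressor. It lies on chromosome 17 at 2054154 to 2063241 of GRCh38, plus strand, in the GENCODE v44 annotation used for all positions here. HIC1 was listed at 0 RPKM in all 3 untreated and all 3 palbociclib libraries, at 8, 11 and 10 RPKM with ATRA, and at 8, 12 and 9 RPKM with the combination. The groups with ATRA lay apart from the groups without it, and no fold change is given because the lower groups are listed at 0. The mean was 9.67 ± 1.53 RPKM (SD, n = 3) with ATRA and 9.67 ± 2.08 (SD, n = 3) with the combination.

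ASB2 encodes the substrate-binding subunit of a cullin-RING ubiquitin ligase that directs filamins to degradation. Its gene spans chromosome 14, 93934166 to 93976739, minus strand. ASB2 stood at 1 RPKM in every untreated and every palbociclib library. It stood at 11, 15 and 15 RPKM with ATRA and at 12, 18 and 18 RPKM with the combination. The ATRA-containing libraries were all above 10 RPKM and did not overlap the others. The mean rose from 1 RPKM to 13.7 ± 2.31 (SD, n = 3) with ATRA and to 16 ± 3.46 (SD, n = 3) with the combination. Because the low values are rounded to 1, the ratio of the combination to palbociclib, 16, could lie between 10.3 and 33.0 from rounding alone.

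CD38 encodes a cell surface enzyme that splits NAD, and it is used as a marker of the early response of myeloid cells to retinoids. The gene lies on chromosome 4 at 15778275 to 15853232, plus strand. CD38 was at 3, 2 and 2 RPKM in untreated cells and at 13, 17 and 20 RPKM with ATRA. It was at 3, 2 and 3 RPKM with palbociclib and at 15, 17 and 21 RPKM with the combination. Every ATRA-containing library was at least 10 RPKM above every library without ATRA. The means were 2.33 ± 0.577, 16.7 ± 3.51, 2.67 ± 0.577 and 17.7 ± 3.06 RPKM (SD, n = 3 each) for untreated, ATRA, palbociclib and combination.

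PRAM1 encodes an adaptor protein of myeloid cells, named for its repression by PML::RARA and its rise with retinoic acid. It lies on chromosome 19 at 8490056 to 8502640, minus strand. PRAM1 was at 4, 6 and 4 RPKM in untreated cells and at 12, 13 and 15 RPKM with ATRA. It was at 7, 6 and 5 RPKM with palbociclib and at 14, 14 and 17 RPKM with the combination. The libraries with ATRA lay above all others, while the palbociclib and untreated libraries overlapped. Unlike HIC1 and ASB2, PRAM1 was measured well above 0 without ATRA, at 4.67 ± 1.15 RPKM (SD, n = 3) in untreated cells.

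TNFAIP2 encodes M-Sec, a protein related to the exocyst subunit Sec6 that was first described as a product of tumour necrosis factor treatment. It lies on chromosome 14 at 103121476 to 103137439, plus strand. TNFAIP2 was at 4, 5 and 4 RPKM in untreated cells and at 7, 11 and 12 RPKM with ATRA. It was at 4, 6 and 5 RPKM with palbociclib and at 6, 10 and 9 RPKM with the combination. The ATRA libraries lay above the untreated ones, but the lowest combination library equalled the highest palbociclib library at 6 RPKM. TNFAIP2 was thus the only one of the 5 genes whose groups with and without ATRA overlapped in the presence of palbociclib.

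TGM2 encodes tissue transglutaminase, an enzyme that cross-links proteins, and RARRES3, now named PLAAT4, encodes a small phospholipase and acyltransferase. TGM2 lies on chromosome 20 at 38127385 to 38166578 (minus strand) and RARRES3 on chromosome 11 at 63536808 to 63546462 (plus strand). Both were listed at 0 in all 12 libraries, ATRA-containing ones included. A listed 0 lies below the rounding step and does not show that the gene was silent. In the table as a whole, 43013 genes were listed at 0 throughout.

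**Figure D1:**
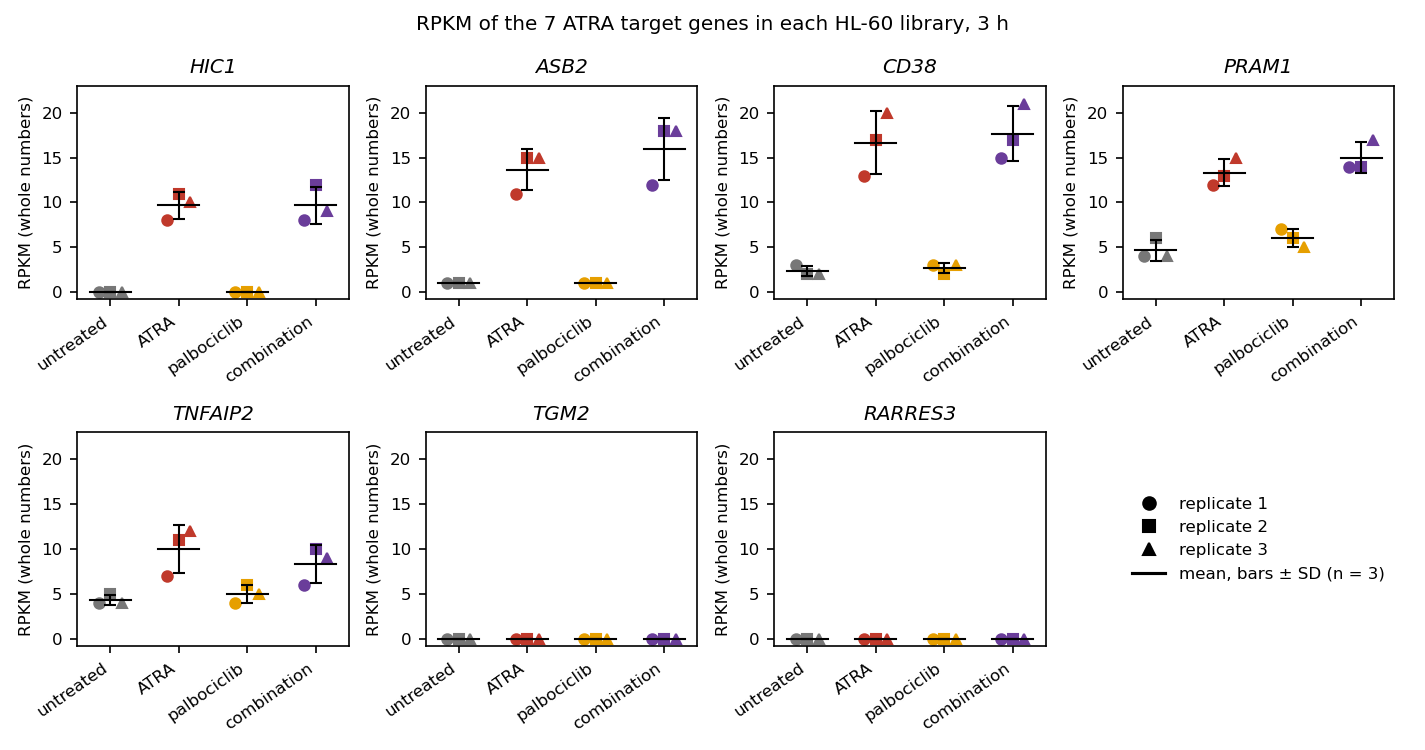
RPKM of each of the 7 genes (vertical axes, the same linear scale in every panel) in the 12 libraries, grouped by condition, with the mean and SD of 3 libraries as bars and the replicate number as the point's shape. The 5 measured genes separate the ATRA-containing libraries from the rest except for TNFAIP2 at 6 RPKM, and TGM2 and RARRES3 lie at 0.

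RPKM is scaled by gene length, so levels can be set side by side between genes. In the combination the order by mean RPKM was CD38 (17.7), ASB2 (16), PRAM1 (15.0), HIC1 (9.67) and TNFAIP2 (8.33). CD38 from ASB2, ASB2 from PRAM1, and HIC1 from TNFAIP2 differed by less than their SDs, whereas PRAM1 and HIC1 were further apart than their SDs. In untreated cells the order was another one, with PRAM1 (4.67 RPKM) and TNFAIP2 (4.33 RPKM) above CD38 (2.33 RPKM), ASB2 (1 RPKM) and HIC1 (0). The 5 genes therefore reached a level between 8 and 18 RPKM from different starting points.

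The change with ATRA alone is given as a description, because the set was chosen with it in view. The scale is log2(RPKM + 0.1), on which a change from a low level above 0 comes out too small and a step between 0 and 1 RPKM comes out large. The mean difference of ATRA from untreated on it was 3.63 for ASB2, 2.79 for CD38, 1.51 for PRAM1 and 1.16 for TNFAIP2. As ratios of mean RPKM these were 13.7, 7.14, 2.86 and 2.31. From rounding alone the ratios could lie at 8.78 to 28.3, 5.71 to 9.36, 2.48 to 3.32 and 1.97 to 2.74. All 5 measured genes, HIC1 included, had ATRA libraries above every untreated library. Of all 7820 genes tested, 12.4% had the same separation, and nothing is read from the members' count. The combination against untreated shares the untreated libraries with that contrast, and there the differences were 3.85, 2.88, 1.68 and 0.90 on the log2 scale in the same order of genes.

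The difference of the combination from palbociclib uses no library of the contrast that was in view, and it measures the change with ATRA when palbociclib is present. Its SE and p-values do not share this separation, because filter and spread come from all 12 libraries, the ATRA and untreated ones included. With only the 2 groups compared in the fit, 2 members were called, and the share of all genes in that fit is not given. HIC1, ASB2, CD38 and PRAM1 rose, 4 of the 7 genes, and TNFAIP2 did not pass the test. HIC1, ASB2 and CD38 were tested only because their ATRA-containing libraries, the combination among them, reached the filter. The count is therefore no support for a rise of the set. By limma with Benjamini-Hochberg adjustment over 7820 genes and a threshold of 0.001, 2.11% of all genes were called higher in this comparison. Since the genes are known ATRA targets and rose with ATRA alone in these cells, the count repeats a known direction. It does so in libraries that are not independent of the ATRA ones, because same-numbered treated libraries deviated together. The libraries did not overlap for the same 4 genes, against 8.26% of all genes higher in this way. An exact permutation test of 3 libraries against 3 cannot give a p below 0.1, so the tests rest on the spread that limma pools over genes.

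ASB2 rose by 3.85 on the log2 scale (SE 0.166, limma adjusted p = 1.59e-07). For HIC1 the limma adjusted p was 1.59e-07, and its fitted difference depends on the pseudocount and is not given. ASB2 was rounded to 1 RPKM and HIC1 to 0 in every palbociclib library. The SE of ASB2 and the p-values of both genes therefore leave out the rounding. CD38 rose by 2.69 (SE 0.221, limma adjusted p = 1.78e-05), which is a ratio of mean RPKM of 6.63, with 5.42 to 8.38 possible from rounding. PRAM1 rose by 1.31 (SE 0.172, limma adjusted p = 0.000502), a ratio of 2.5. By size, ASB2, CD38 and PRAM1 came in the same order as with ATRA alone. Because HIC1, ASB2 and CD38 passed the filter only through their ATRA-containing libraries, their p-values are descriptions and no support for a rise.

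The PRAM1 call was close to the threshold. It was made in 8 of 22 alternative analyses, with adjusted p-values in limma from 0.00025 to 0.0103 and a log2 difference from 1.19 to 1.43. With the replicate number as a block its adjusted p was 0.00109. The call was kept only without untreated replicate 2, without ATRA replicate 1 or without ATRA replicate 3, and lost without any other single library, where the largest adjusted p was 0.00387. CD38 lost its call when only the 2 groups compared were fitted (limma adjusted p = 0.00348), and ASB2 and HIC1 were called in all 22 alternatives. All alternatives use the same rounded values, without spread for ASB2 and HIC1 in palbociclib, so these calls add no support for a rise.

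For TNFAIP2 the difference between combination and palbociclib was 0.71 on the log2 scale (95% interval 0.18 to 1.24, limma adjusted p = 0.0854), a ratio of mean RPKM of 1.67. In same-numbered libraries the combination was above palbociclib in 3 of 3 pairs. The block by replicate number lowered its adjusted p to 0.00406, which is still above the threshold of 0.001, and the range over all 22 alternatives was 0.00406 to 0.277.

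Palbociclib alone was set against untreated cells, a comparison that shares the untreated libraries with the contrast in view. None of the 5 measured genes was called by limma at an adjusted p under 0.001, where 0.499% of all genes were called in either direction. No member had an unadjusted p under 0.05, as did 569 genes in the higher and 790 in the lower direction. ASB2 and HIC1 had the same value in all 6 libraries of this comparison. PRAM1 had the largest difference among the members, 0.37 on the log2 scale with a 95% interval of -0.01 to 0.75 (limma adjusted p = 0.307), from 4, 6 and 4 RPKM to 7, 6 and 5 RPKM. CD38 and TNFAIP2 each differed by 0.19, with limma adjusted p-values of 0.744 and 0.756.

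The combination was then set against ATRA alone, which shares the ATRA libraries with the contrast in view. No member was called, and 0.0% of all genes were called by limma at an adjusted p under 0.001. At an unadjusted p under 0.05 there were 44 higher and 243 lower genes and no member among them. The differences on the log2 scale were 0.22 for ASB2 (95% interval -0.15 to 0.58), 0.17 for PRAM1 (-0.21 to 0.55), 0.09 for CD38 (-0.40 to 0.58), -0.01 for HIC1 (-0.63 to 0.62) and -0.26 for TNFAIP2 (-0.78 to 0.27), all with a limma adjusted p of 1. The intervals are wide, most of all for HIC1, and do not show that the levels were equal. They come from the fit without the replicate block, which leaves the spread shared by same-numbered libraries in the error. In bulk RNA, fewer responding cells and less RNA per responding cell cannot be told apart.

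Same-numbered libraries of the ATRA and combination groups deviated together, with a correlation of their deviations across genes of 0.782 to 0.908. Taken pair by pair, ASB2 was higher in the combination by 1, 3 and 3 RPKM and PRAM1 by 2, 1 and 2 RPKM, 3 of 3 pairs for each gene. TNFAIP2 was lower in the combination by 1, 1 and 3 RPKM, again in 3 of 3 pairs. CD38 differed by 2, 0 and 1 RPKM and HIC1 by 0, 1 and -1 RPKM. With the block, over the 9 treated libraries, the TNFAIP2 difference had a limma adjusted p of 0.300, and no member was called.

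**Figure D2:**
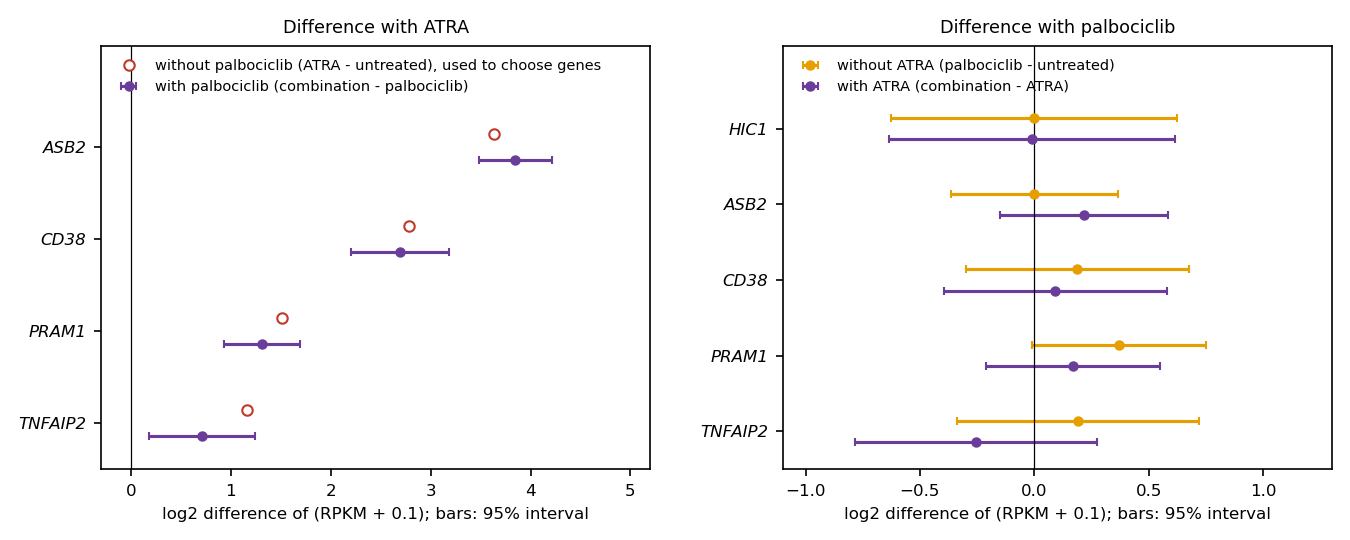
Difference in log2(RPKM + 0.1) for the measured genes, with ATRA on the left (open points, ATRA minus untreated, without an interval because that contrast was in view when the genes were chosen; filled points, combination minus palbociclib) and with palbociclib on the right, where bars are 95% intervals from limma. HIC1 is left out on the left because its lower groups are listed at 0. On the left all values are above 0, and on the right every interval includes 0.

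The change with ATRA in the presence of palbociclib minus that in its absence is described without a test, since it holds the contrast in view. It was 0.22 (SE 0.234) for ASB2, -0.10 (SE 0.313) for CD38, -0.20 (SE 0.244) for PRAM1 and -0.45 (SE 0.338) for TNFAIP2. The value for TNFAIP2 was the largest in size, and it was the gene with both the smallest ATRA change and the overlapping libraries.

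The members varied together among replicates. Replicate 1 was the lowest of the ATRA libraries for all 5 measured genes. In the combination it was the lowest for 4 of 5 and tied for PRAM1. No such order was seen in palbociclib, where ASB2 and HIC1 were constant and replicate 1 held the highest PRAM1 value. The sums of RPKM over all genes ran from 358455 to 390247 per library, and replicate 1 had the highest sum in the ATRA, palbociclib and combination groups. The part of this in the result was not tested. Scaling each library to the median of all genes gave shifts of -0.0239 to 0.0204 on the log2 scale and changed no member's call.

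Over the 12 libraries each member was compared with the mean profile of the 5 measured genes, as a description. Pearson's r was 0.992 for ASB2, 0.988 for HIC1, 0.984 for CD38, 0.969 for PRAM1 and 0.917 for TNFAIP2, each with the gene itself in the mean. All libraries fall in 2 clusters, with and without ATRA, so r mostly states this split. On this scale TNFAIP2 spread the most within the ATRA-containing libraries, from 6 to 12 RPKM.

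**Figure D3:**
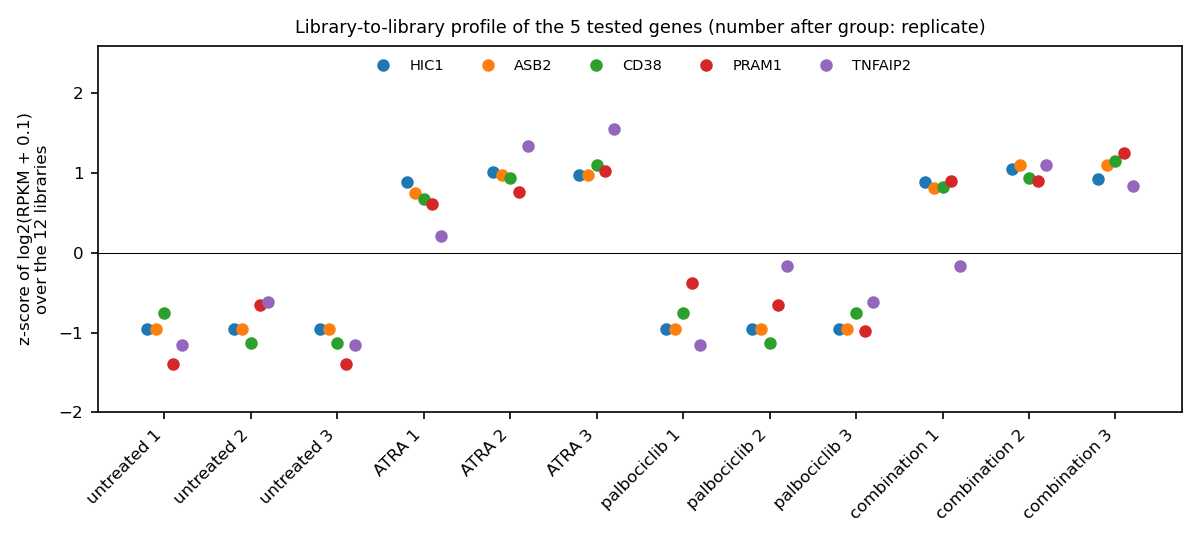
Standard score of log2(RPKM + 0.1) over the 12 libraries for the 5 measured genes, 1 column of points per library. The ATRA and combination libraries lie above 0 for all genes except TNFAIP2 in combination replicate 1, and the untreated and palbociclib libraries lie below 0.

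The 10 tested genes with the profile most like this mean were NCF1B, NCF1, FLOT1, NAPSB, CD300LB, ALOX5AP, NDRG1, LILRA5, NTSR1 and HNRNPLL, with Pearson's r from 0.994 to 0.997 over 12 libraries. They were picked by likeness, so their changes are given without a test. FLOT1, which encodes the membrane scaffold protein flotillin-1, was at 3, 3 and 3 RPKM in untreated cells, 21, 28 and 28 with ATRA, 4, 4 and 4 with palbociclib and 22, 29 and 29 with the combination. ALOX5AP, which encodes the activating protein of the enzyme that starts leukotriene synthesis, was at 80, 88 and 75 RPKM in untreated cells, 196, 249 and 236 with ATRA, 90, 97 and 79 with palbociclib and 208, 263 and 251 with the combination. In both genes replicate 1 was the lowest library with ATRA and with the combination, an order that the choice by likeness to the members favours. NCF1 and NCF1B are near-identical copies, and reads could be split between them.

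Some members share their place in the genome with another gene. A lncRNA, AL132642.1, is annotated on the opposite strand within ASB2, and it was at 0 RPKM in the untreated and palbociclib libraries and at 1, 2 and 2 RPKM with ATRA and again with the combination. Its values were higher in the same libraries as those of ASB2, and its part in the ASB2 values was not tested. SMG6, which overlaps HIC1 on the opposite strand, was between 1 and 3 RPKM in all libraries. RPRD1B, annotated opposite to TGM2, was between 11 and 16 RPKM, and LINC00677, opposite to TNFAIP2, was listed at 0. Another lncRNA annotated opposite to TNFAIP2 has no values in the data used here. Whether the libraries keep the strand is not given in the sources used here, so reads of such pairs may not be told apart. CD38, PRAM1 and RARRES3 overlap no other annotated gene.

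Close relatives of the 7 genes were listed from general knowledge, 37 in all, mainly other ASB family genes, transglutaminases, phospholipase and exocyst genes. Of these, 24 were listed at 0 throughout, 7 were below the filter and 6 were tested. In the combination against palbociclib 0 of the 6 were called by limma, 3 of them had an unadjusted p under 0.05, as had 23.8% of all genes, and the median difference was 0.20 on the log2 scale, against 0 over all 7820 genes. ASB6 had the largest difference, 0.43 (limma adjusted p = 0.0191), from 10, 8 and 8 RPKM to 12, 11 and 12 RPKM. BST1, the neighbouring relative of CD38 and an enzyme of the same kind, stayed between 1 and 2 RPKM in all 12 libraries, below the filter.

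The 2 nearest protein-coding genes on each side of each member were also examined. The table held 27 of these 28 genes, of which 11 were listed at 0, 9 were below the filter and 7 were tested. None of the 7 was called by limma, 2 had an unadjusted p under 0.05, near the 23.8% of all genes, and their median difference was -0.01 on the log2 scale, against 0 over all genes. MYO1F next to PRAM1 had the largest positive difference, 0.35 (limma adjusted p = 0.144), with 19, 22 and 22 RPKM in palbociclib and 22, 28 and 31 RPKM in the combination. LGALS12 next to RARRES3 had the largest negative one, -0.38 (limma adjusted p = 0.0736).

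A list of 36 other genes known to respond to retinoids was set beside the members. Of these, 9 were listed at 0, among them RARB and the retinoic acid hydroxylases CYP26A1 and CYP26B1. A further 11 were below the filter and 16 were tested. In the combination against palbociclib 5 rose, 0 fell and 11 did not pass the test. Over all genes 2.11% were called higher. Of the 16, 8 would not have passed the filter without their ATRA-containing libraries (among them ICAM1, IRF1 and DHRS3), so the count over those that passed is no support for a rise of the list. With the replicate block 10 of the 16 were called, all higher, and with the 2 compared groups alone 1 was. The share of all genes under these 2 settings is not given, so nothing is read from these counts.

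ICAM1, a cell adhesion molecule, rose by 3.65 on the log2 scale (limma adjusted p = 4.62e-05), from 1 RPKM in each palbociclib library to 8, 20 and 16. CEBPB, a transcription factor of myeloid maturation, rose by 2.11 (limma adjusted p = 1.64e-06), from 10, 9 and 9 RPKM to 36, 46 and 40. IRF1, a factor of the interferon response, rose by 1.82 (limma adjusted p = 0.000234). BTG2, an antiproliferative gene, rose by 1.60 (limma adjusted p = 2.66e-05). CEBPE, a factor required for late granulocyte maturation and the fifth called gene, rose by 1.57 (limma adjusted p = 5.2e-07), from 48, 39 and 47 to 131, 131 and 135 RPKM. It lies outside the rule for named genes and was named after its values were seen.

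DHRS3, a retinaldehyde reductase of the same list and also named after its values were seen, went from 1, 1 and 0 RPKM with palbociclib to 41, 50 and 49 with the combination without being called (limma adjusted p = 0.00142). Its untreated libraries were at 0, 1 and 0 and its ATRA libraries at 40, 48 and 47 RPKM. The missing call depends on the pseudocount, since with 0.5 the limma adjusted p was 2.13e-05 and with 1 it was 2.1e-06. DHRS3 was also called with the replicate block, with median-ratio scaling and with a filter of 10 RPKM.

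A list of 26 genes of granulocytic maturation, such as those of the NADPH oxidase and of surface receptors, was compared in the same way. Of these, 10 were listed at 0, 4 were below the filter and 12 were tested, of which 3 rose, 0 fell and 9 did not pass the test, against 2.11% of all genes called higher. FGR and NCF1 would not have passed the filter without their ATRA-containing libraries. The median difference was 0.22 on the log2 scale, against 0 over all genes. NCF1, a subunit of the oxidase, rose by 3.50 (limma adjusted p = 6.73e-06), from 5, 4 and 4 to 35, 57 and 62 RPKM. LYN, a Src family kinase, rose by 0.69 (limma adjusted p = 7.52e-05), from 18, 21 and 20 to 30, 33 and 32 RPKM. FGR, a kinase of the same family, was called (limma adjusted p = 9.09e-05) with 0, 0 and 1 RPKM in palbociclib and 27, 44 and 53 in the combination. ITGAM, which encodes the granulocyte surface marker CD11b, was at most 2 RPKM in any library. With the replicate block 6 of the 12 genes were called, 5 higher and 1 lower, and with the 2 compared groups alone 0. For these settings too the share of all genes is not given, so nothing is read from the counts. The lower one was FCGR1A, an Fc receptor gene named after its values were seen, at -0.55 on the log2 scale (limma adjusted p = 0.000529 with the block and 0.00313 without it), from 16, 14 and 14 to 11, 9 and 10 RPKM.

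**Figure D4:**
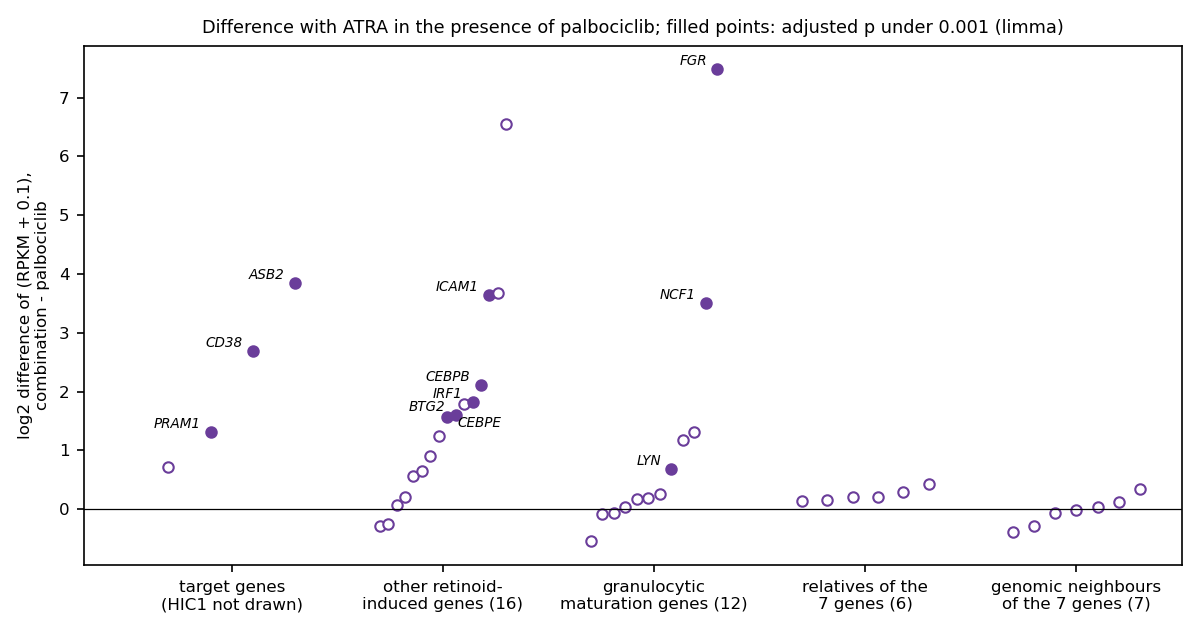
Difference in log2(RPKM + 0.1) between the combination and palbociclib for each tested gene (points) of the 7 targets and 4 other lists, sorted within a list, with filled points for an adjusted p under 0.001 by limma. HIC1 is not drawn, and the position of genes near 0 RPKM, such as FGR, depends on the pseudocount. Called genes appear among the targets, the other retinoid-induced genes and the granulocytic genes, and the 6 relatives and 7 neighbours lie between -0.38 and 0.43.

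The labelled cell type was checked on marker genes. Of 8 myeloid markers 0 were listed at 0 throughout, although the neutrophil elastase gene ELANE was at 0 to 1 RPKM. Their summed level was 1544 to 1769 RPKM in untreated cells, 1431 to 1622 with ATRA, 1706 to 1935 with palbociclib and 1448 to 1698 with the combination. It was mostly carried by MPO, which encodes myeloperoxidase. Its range was lower with ATRA than without it in the presence of palbociclib, where the members were higher, and its part in their values was not tested. Of 16 markers of lymphoid, erythroid, epithelial and fibroblast cells, 15 were listed at 0 in every library and the other one, CD79A, reached 1 RPKM.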

How the data were processed

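Poly(A) RNA of 12 HL-60 libraries was sequenced, 3 per condition. Per the study's methods, the authors aligned the reads to hg38 (HISAT2) and ran htseq-count with its defaults. Tool versions are not given in the sources used here. The deposited values are RPKM that the authors rounded to whole numbers, here a score in steps of 1 RPKM and not counts. They do not show library depth, so no counting interval is given and errors are SDs over libraries. All 12 columns were matched to the sample labels.

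Genes with at least 5 RPKM in at least 3 libraries (7820) were tested with limma 3.58.1 in R 4.3.3 on log2(RPKM + 0.1), with 1 mean per condition over all 12 libraries, eBayes with a trend, and Benjamini-Hochberg adjustment within each comparison, at a threshold of 0.001. Tables and plots were made with Python 3.11.15. The procedure was tested on simulated data with noise drawn independently for each library. This test does not cover the deviations that same-numbered treated libraries share. The members and the lists were chosen with earlier results of these data known. Named were all 7 members, at most 4 called genes of each list by size, relatives and neighbours of at least 5 RPKM, and the 10 genes with the most similar profile. Other genes named are CEBPE, DHRS3, AL132642.1, SMG6, LINC00677, BST1, ITGAM, FCGR1A, KLF6, KIAA1755, cell type markers and genes listed at 0. These were named after their values were seen.

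Same-numbered treated libraries deviated together (correlations of 0.438 to 0.908 across genes), whereas untreated libraries did so less clearly with them (0.0453 to 0.367). What the replicate numbers share is not stated in the labels or methods. A block by replicate number was therefore an alternative, beside other filters, pseudocounts, scalings, thresholds and the removal of single libraries. Promoter sequences are from RefSeq (GRCh38.p14), with entries for 3 of the 7 genes, and gene positions from GENCODE v44.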

Additional observations from a re-analysis of the deposited data

How the results depend on the processing

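Of the 7 members, 4 were called higher in the combination than in palbociclib, against 2.11% of all genes tested. The count was 3 with the replicate block, with a filter of 1 RPKM, with no filter and in the 9 treated libraries with the block. It was 2 when only the 2 groups compared were fitted, and 3 to 4 when single libraries were left out. The share of 2.11% belongs to the main fit and was not taken for the alternatives. The calls of ASB2 and HIC1 were made in every alternative run, each time from palbociclib values that rounding left without spread. The block changed the call of PRAM1 and of no other member. The count stayed at 0 for palbociclib against untreated cells and for the combination against ATRA in every alternative run, also at an adjusted p under 0.05. Of all genes, 0.499% and 0.0% were called in these comparisons, in that order, at the threshold of 0.001.

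The 5 called genes among the other retinoid-induced genes all rose, of 16 tested. They became 8 with a filter of 1 RPKM and 8 with no filter (7 higher and KLF6 lower, of 27 tested), 10 with the replicate block, 1 with the 2 groups compared only, and 14 at an adjusted p under 0.05 (13 of them higher). They were 7 with a pseudocount of 0.5 or 1, and 4 to 6 without single libraries. The 3 granulocytic genes, all higher, became 6 with the block, 0 with the 2 groups only and 6 at an adjusted p under 0.05, with 5 higher and FCGR1A lower in both counts of 6, and 3 to 4 without single libraries. Relatives went from 0 to 3 at an adjusted p under 0.05. Neighbours went from 0 to 1 with a filter of 1 RPKM and to 1 with no filter, which was KIAA1755. KIAA1755 was at 0 RPKM in every palbociclib library and at 1 RPKM in every combination library. KLF6 was at 3 RPKM in every palbociclib library and at 2 RPKM in every combination library. Each differs by 1 rounding step with no spread within a group. For none of these alternatives is the share of all genes called given, and the 2.11% of the main fit does not apply to them. Nothing is therefore read from these counts about the lists. The cause of the shifts between alternatives was not tested.

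The median log2 difference of the 5 measured members from untreated cells was 2.79 with ATRA and 2.40 with a pseudocount of 1 (2.65 to 2.98 without single libraries). It was 2.88 with the combination and 2.49 with a pseudocount of 1 (2.75 to 3.07). The median difference of the 2 ATRA changes ran from -0.26 to 0.02 without single libraries.

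Against ATRA alone, the sign of 2 differences near 0 depended on 1 library. CD38 ran from -0.075 to 0.23 without single libraries, with -0.075 without ATRA replicate 1 and -0.04 without combination replicate 3. HIC1 ran from -0.17 to 0.12, and was 0.09 without ATRA replicate 2, 0.02 without ATRA replicate 3, 0.12 without combination replicate 1 and 0.03 without combination replicate 3.

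The analysis of the 9 treated libraries blocked by replicate number, and all alternatives for relatives, neighbours and the combination against untreated cells, were chosen after seeing the data. Values rounded to 1 RPKM limit the precision of low genes, most of all ASB2 and HIC1 without ATRA, and 3 libraries per condition limit what can be called.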
